A study of Mus musculus with 2 samples.

Results

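The genes that build cholesterol and fatty acids, with the SREBP factors that control them, were described in open chromatin of hepatic stellate cells, the pericytes of the hepatic sinusoid that store vitamin A. The 27 genes were chosen by name for their role in the pathway, and all 27 were found among 21887 protein-coding genes of the mouse. They comprise 5 SREBP regulators, 7 genes of the mevalonate and isoprenoid steps, 8 of the squalene and sterol steps, 6 of fatty acid synthesis and the sterol carrier gene Stard4.

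SREBP proteins are transcription factors held in the membrane of the endoplasmic reticulum. When sterols are low, the escort protein SCAP carries them to the Golgi, where they are cut and released to the nucleus; when sterols are plentiful, INSIG proteins retain the complex. In the nucleus they bind sterol regulatory elements in promoters of synthesis genes, usually beside sites for the general factors NF-Y and Sp1. In liver, hepatocytes carry out most lipid synthesis, while stellate cells store retinyl esters in lipid droplets.

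ATAC-seq, in which Tn5 transposase tags accessible DNA, was run on 2 samples of 1 group, replicates A and B. By the labels these were hepatic stellate cell nuclei from healthy C57BL6/JBomTac mice on chow, sorted on mCherry-RPL10A. The mice, B6.Cg by the labels, carried the reporter allele Gt(ROSA)26Sortm1(mCherry-Rpl10a-Flop)Kra and the transgene Tg(Lrat-cre)1Rshw, in which the Lrat promoter drives Cre. The reporter thus marks cells in which that promoter was active. The age of the mice, and whether A and B came from separate animals, are not given in the sources used here, so differences between A and B may be technical. The peak names in the list of B start with a word for oil while its labels say chow, and the labels were followed. Without a second group no condition was compared, and no test was run.

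A held 36577 peak entries and B 28794, with no read counts, so depth is unknown. A peak is called replicated where entries of both lists shared 1 bp or more, and its coordinates here are those in A. Each locus spans the gene body and flanks of 20 kb, in mm10. A start is the upstream boundary of the RefSeq gene span or a start in the RefSeq promoter table, with 1000 bp on either side. That table held 21 of the 27 genes. For the other 6 (Fdps, Fdft1, Sqle, Scd1, Scd2 and Stard4) both gene ends stood in for the start. Fold enrichment is the authors' own value for each peak over local background. It is not scaled between lists, so percentiles among all entries of a list are given as well. A value in A or in B is a fold enrichment unless named otherwise.

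The promoters printed here are examples chosen for their peaks, so their split is not a result. By that choice, 6 had a replicated peak over the window and 1 had no peak at its start in either list. Each runs 5′ to 3′ on the strand of the gene, from 250 bases before the start to 50 after it, from RefSeq on GRCm38.p6. Capitals mark every match, on either strand, to the letters TCACNCCAC (core of the sterol regulatory element), CACGTG (palindromic E-box), CCAAT (box bound by NF-Y) or GGGCGG (GC box bound by Sp1). None of the matches overlapped one another in these 7 windows. The windows are chr13:119690101-119690400 for Hmgcs1, chr1:169969156-169969455 for Hsd17b7, chr11:100527951-100528250 for Acly and chr7:143822917-143823216 for Dhcr7. The others are chr5:28071162-28071461 for Insig1, chr5:114444019-114444318 for Mvk and chr3:129532136-129532435 for Elovl6. Hsd17b7 and Acly lie on the minus strand and the rest on the plus strand.
Hmgcs1: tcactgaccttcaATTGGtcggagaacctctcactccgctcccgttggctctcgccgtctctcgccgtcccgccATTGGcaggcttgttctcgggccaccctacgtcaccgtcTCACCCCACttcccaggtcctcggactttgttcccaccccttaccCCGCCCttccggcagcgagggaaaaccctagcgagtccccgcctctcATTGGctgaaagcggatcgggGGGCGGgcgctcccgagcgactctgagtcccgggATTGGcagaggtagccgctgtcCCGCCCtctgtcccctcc
Hsd17b7: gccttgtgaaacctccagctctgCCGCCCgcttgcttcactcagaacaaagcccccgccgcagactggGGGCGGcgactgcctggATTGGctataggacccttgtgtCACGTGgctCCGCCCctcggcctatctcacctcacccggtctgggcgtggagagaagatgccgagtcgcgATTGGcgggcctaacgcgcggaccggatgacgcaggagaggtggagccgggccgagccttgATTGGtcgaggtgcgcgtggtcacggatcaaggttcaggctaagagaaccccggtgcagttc
Acly: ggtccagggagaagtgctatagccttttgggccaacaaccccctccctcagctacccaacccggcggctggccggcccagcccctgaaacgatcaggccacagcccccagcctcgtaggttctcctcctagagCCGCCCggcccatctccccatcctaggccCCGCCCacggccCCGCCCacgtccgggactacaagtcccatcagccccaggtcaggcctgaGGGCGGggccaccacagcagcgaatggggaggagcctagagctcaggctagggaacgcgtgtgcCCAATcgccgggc
Dhcr7: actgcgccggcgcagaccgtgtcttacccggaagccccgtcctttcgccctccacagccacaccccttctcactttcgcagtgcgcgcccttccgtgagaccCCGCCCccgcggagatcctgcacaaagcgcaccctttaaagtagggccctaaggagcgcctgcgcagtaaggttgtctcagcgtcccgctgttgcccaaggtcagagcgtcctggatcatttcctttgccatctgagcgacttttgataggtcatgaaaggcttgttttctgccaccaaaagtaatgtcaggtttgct
Insig1: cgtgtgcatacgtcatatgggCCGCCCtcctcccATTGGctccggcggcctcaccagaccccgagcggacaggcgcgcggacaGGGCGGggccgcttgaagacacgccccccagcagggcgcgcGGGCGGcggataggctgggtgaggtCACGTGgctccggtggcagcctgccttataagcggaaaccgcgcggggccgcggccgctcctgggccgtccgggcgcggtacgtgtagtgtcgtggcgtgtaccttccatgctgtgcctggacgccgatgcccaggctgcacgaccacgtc
Mvk: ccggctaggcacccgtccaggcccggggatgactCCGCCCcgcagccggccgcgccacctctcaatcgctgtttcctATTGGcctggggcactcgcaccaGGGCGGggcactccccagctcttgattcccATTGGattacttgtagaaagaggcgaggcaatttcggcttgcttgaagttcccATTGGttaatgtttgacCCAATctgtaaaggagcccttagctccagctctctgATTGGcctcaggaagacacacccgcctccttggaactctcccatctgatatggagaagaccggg
Elovl6: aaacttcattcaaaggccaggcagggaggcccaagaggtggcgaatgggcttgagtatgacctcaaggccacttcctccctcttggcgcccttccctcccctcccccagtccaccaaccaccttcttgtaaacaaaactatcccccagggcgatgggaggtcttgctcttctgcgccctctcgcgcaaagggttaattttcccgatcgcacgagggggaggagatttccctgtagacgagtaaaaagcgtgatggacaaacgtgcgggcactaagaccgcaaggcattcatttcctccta

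Most of the 27 genes were open at their start in both replicates. A replicated peak lay at the start of 23 of 27 genes (85.2%, Wilson 95% interval 67.5% to 94.1% over genes), against 44.0% of all protein-coding genes. Weighting all genes to the lengths of the 27 gave 51.3%. Among the 10000 strongest entries of each list it was 15 of 27 (55.6%), against 29.1% at like length. In A alone 25 genes had a start peak, and in B alone 23. The 21 genes with a start in the promoter table gave 18 (85.7%), against 45.3% of all genes with one.

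Every locus held at least 1 replicated peak. The share was thus 27 of 27, against 64.6% of all genes and 72.2% at like length. The gene body itself held one in 25 genes (92.6%), against 48.7% of all genes and 55.5% at like length. The number of peaks per locus was low all the same. It was 1 in 13 genes, 2 in 8, 3 in 4, 4 in Fdps and 5 in Tm7sf2, with a median of 2 against 1 over all genes. The mean was 1.85 ± 1.06 (SD over 27 genes), against 1.64 for genes of like length.

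What the loci had beyond their starts was close to the background. A replicated peak away from the starts of all protein-coding genes lay in 8 of 27 loci (29.6%), against 30.7% of all genes and 31.9% at like length. Of the 50 replicated peaks, 28 lay at the gene's own start, 11 at the start of another gene, 4 elsewhere in the gene body and 7 in the flanks. In Tm7sf2, for example, 4 of the 5 replicated peaks lay at starts of neighbours: 1 at Fau and Mrpl49 (14.4 in A, 15.5 in B), 1 at Znhit2 (9.84 in A, 6.47 in B), 1 at Vps51 and Tmem262 (8.73 in A, 12.3 in B) and 1 at Cdca5 and Zfpl1. An entry of A alone, with 14.2, lay at the start of Syvn1.

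**Figure D1:**
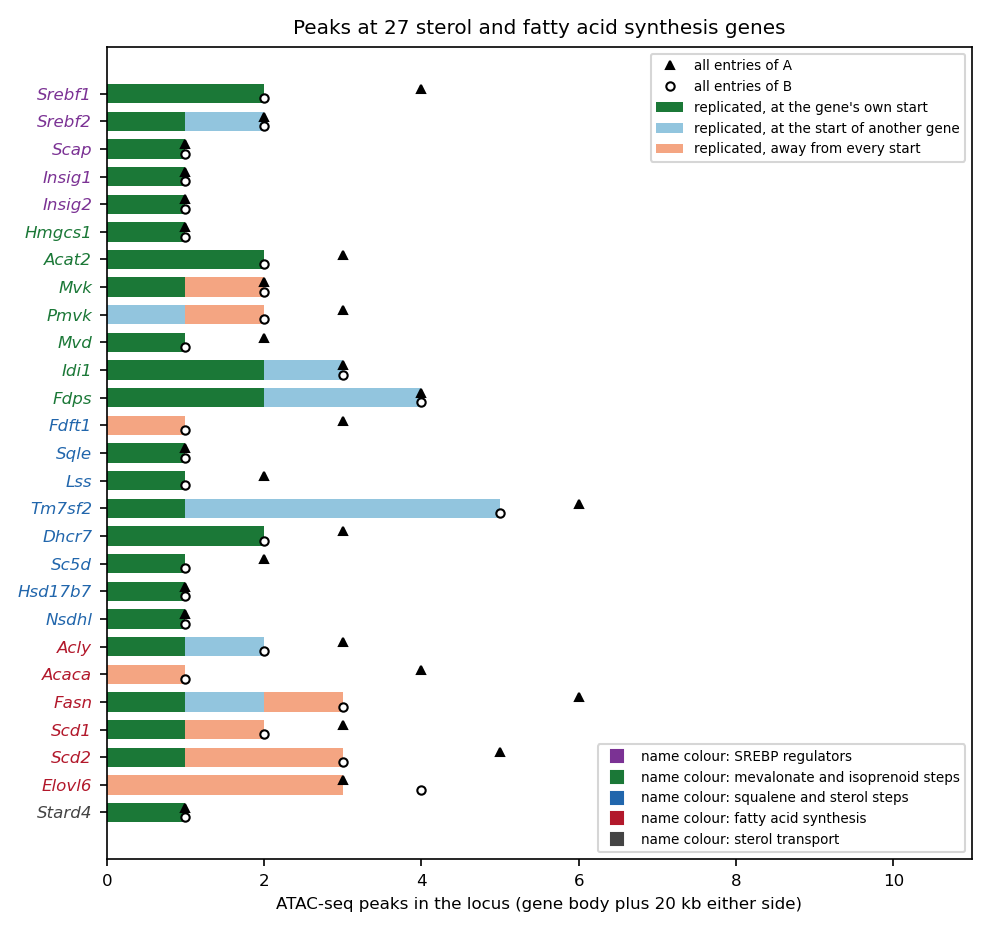
Number of ATAC-seq peaks (x axis) in the locus of each of the 27 genes (rows), with bars for replicated peaks split by place, triangles for all entries of A and circles for all entries of B. Every gene has at least 1 replicated peak, 23 have one at their own start, and Tm7sf2 has the most, with 5.

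The start peaks ranked high in both lists. The 28 replicated peaks at own starts had fold enrichments of 7.80 to 29.3 in A (median 17.9) and of 7.09 to 24.9 in B (median 13.9), against medians of 14.3 and 12.9 for the 9577 replicated peaks at starts of all genes. Their median percentiles were 90.2 in A and 80.2 in B, against 78.5 and 75.5. Their median width in A was 312 bp, against 282 bp. In 23 of the 28 the percentile was above 50 in both lists, and 21 covered a start itself. Neither share was computed for the 9577 peaks, whose median percentiles were above 50 as well, so neither count is particular to the 28. At genes with a known strand the summit lay between 240 bp upstream and 304 bp downstream, with a median of -51.5 bp from the start. The percentile of a start peak differed between A and B by a median of 5.05 points, against 9.12 over all replicated start peaks.

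**Figure D2:**
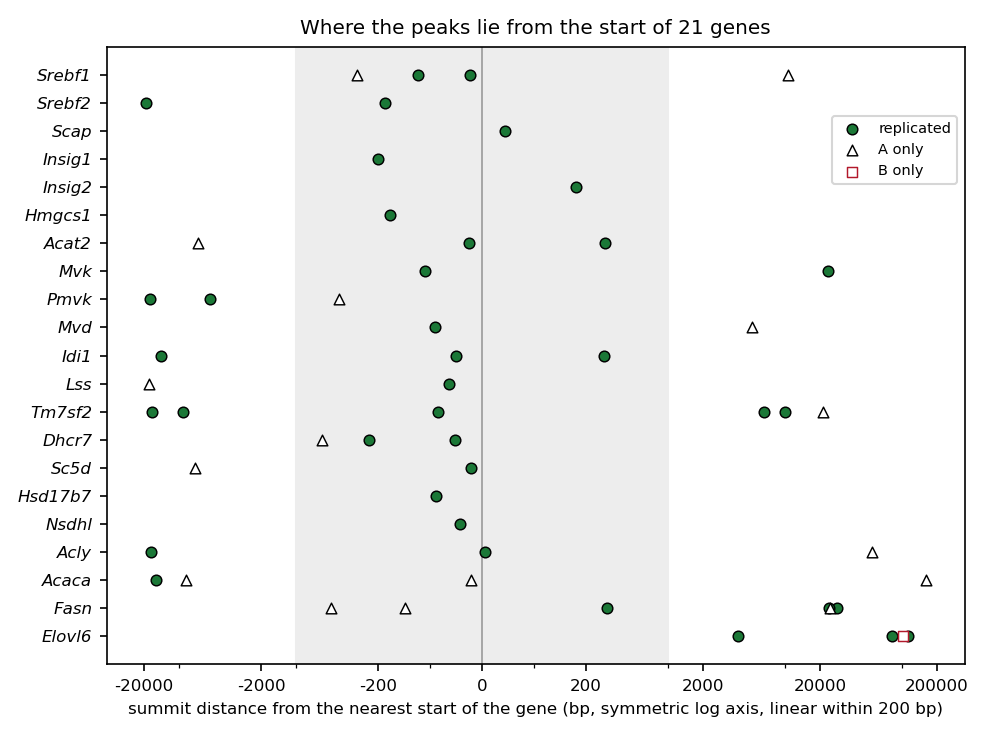
Distance of each peak summit from the nearest start of its gene (x axis, bp, symmetric log scale, negative upstream) for the 21 genes with a known strand. Filled circles are replicated peaks, triangles entries of A alone and the square an entry of B alone; the grey band marks 1000 bp on either side. Replicated summits gather just upstream of the start in most rows, while Pmvk, Acaca and Elovl6 have none in the band.

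All 5 SREBP regulators had a replicated start peak, and none had a replicated peak away from the starts of all genes. Insig1, which encodes a sterol-sensing retention protein and is itself an SREBP target, had the strongest. Its single peak, at chr5:28071082-28071415, was enriched 21.6-fold in A and 23.8-fold in B, at percentiles 96.5 and 99.5. Insig2, the other retention protein gene, had 12.1 in A and 10.4 in B at chr1:121327713-121328104. Insig1 was thus the higher in both replicates.

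Srebf2, which encodes the SREBP that mainly drives cholesterol synthesis, had 19.8 in A and 17.1 in B. That peak, at chr15:82146786-82147295, was the widest of the replicated start peaks in A, at 510 bp. In B it was 377 bp wide, against 501 bp for that of Hmgcs1. Srebf1 encodes the SREBP forms best known for fatty acid synthesis, and was open at several of its starts. The peak at chr11:60210393-60210721 had 14.4 in A and 10.7 in B, and that at chr11:60220590-60220742 had 7.80 in A and 11.8 in B. The order of these starts differed between replicates, so neither can be called the stronger. An entry of A alone, with 10.1, lay 218 bp from a further start. Scap, the escort gene, had 14.9 in A but 7.67 in B at chr9:110333205-110333434, percentiles 80.8 and 24.8. That gap of 56.0 points was the widest among the start peaks.

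Of the 7 genes of the mevalonate and isoprenoid steps, 6 had a replicated start peak. These enzymes turn acetyl-CoA into farnesyl diphosphate, the precursor of sterols and prenyl groups. Hmgcs1, which encodes HMG-CoA synthase, had one peak, at chr13:119689973-119690424, with 22.4 in A and 22.2 in B. It covered all 300 bases of the promoter window printed above. Fdps, which encodes farnesyl diphosphate synthase, had the highest value of this class in A. At its higher end, chr3:89101877-89102205, the peak had 27.4 in A and 21.3 in B, against 9.82 in A and 10.0 in B at its lower end. That lower end also lies at a start of Rusc1, as did the other replicated peaks of the locus, with 12.4 in A and 8.63 in B, and with 6.94 in A and 9.01 in B.

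Mvk, the mevalonate kinase gene, had 23.8 in A and 16.6 in B at chr5:114444005-114444348. The peak also lies at the start of Mmab, a cobalamin metabolism gene that is known to share a promoter with Mvk. Mvd, the gene of the decarboxylase that makes isopentenyl diphosphate, had 20.2 in A and 14.7 in B. Idi1, the gene of the isomerase that follows, had a pair of peaks at its start. The one over the start had 13.4 in A and 12.3 in B, and the one 111 bp downstream had 18.7 in A and 17.6 in B, the higher of the pair in both replicates. Acat2, whose enzyme joins acetyl-CoA units, had 13.3 in A and 12.1 in B over the start, and 8.49 in A and 8.12 in B inside the gene.

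Pmvk, the phosphomevalonate kinase gene, was the exception. Its only start entry was in A, with 6.90 at percentile 12.7. A replicated peak lay 5.33 kb upstream of the gene at chr3:89448985-89449210, with 14.0 in A and 12.5 in B. The other lay at a start of Pbxip1.

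Of the 8 genes of the squalene and sterol steps, 7 had a replicated start peak. Hsd17b7, whose product is a sterol 3-ketoreductase, had the highest start peak of the 27 genes. At chr1:169969140-169969447 it had 29.3 in A and 24.9 in B, percentiles 99.9 and 99.7, and covered 292 of the 300 bases shown above. Sqle encodes squalene epoxidase, a rate-limiting enzyme of the sterol steps, and had 23.5 in A and 15.4 in B at chr15:59314843-59315123. Dhcr7, the gene of the last reductase of cholesterol synthesis, was open at more than one start. The peak at chr7:143822738-143823130 had 23.9 in A and 21.6 in B and also lies at the start of Nadsyn1. The peak at chr7:143829996-143830267 had 22.4 in A and 17.2 in B.

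The remaining sterol genes had lower values. Nsdhl, the gene of a sterol dehydrogenase, had 18.1 in A and 13.0 in B at a start near that of Cetn2. Sc5d, the sterol desaturase gene, had 15.4 in A and 13.8 in B. Tm7sf2, a sterol reductase gene, had 15.3 in A and 10.6 in B in a peak that also lies at a start of Vps51. Lss, the lanosterol synthase gene, had 11.8 in A, the lowest of this class in that list, and 11.7 in B. Over this class the median was 20.2 in A and 14.6 in B.

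Fdft1, the gene of squalene synthase, had no entry at either gene end. Its replicated peak lay inside the gene, 3.45 kb from the higher end, at chr14:63177827-63178238. With 19.8 in A and 18.3 in B, both at percentile 94.1, it ranked above the median start peak in each list. The strand and starts of Fdft1 were not given in the promoter table, so whether an internal start lies there was not tested. Stard4, which encodes a cholesterol carrier, had 1 peak, which covered its higher end, with 23.6 in A and 18.3 in B.

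Among the fatty acid synthesis genes, peaks away from starts were frequent. A replicated start peak was found at 4 of 6 (66.7%), against 52.4% of all genes of like length. Replicated peaks away from the starts of all genes lay in 5 of these 6 loci (83.3%), against 37.0% at like length. In the other 21 genes that number was 3 (14.3%), against 27.8% to 33.9% at like length across their classes. This contrast was chosen after the values were seen, rests on 6 genes and was not tested. It was 5 of 6 against 8 of 21 with the list of A alone, and 2 of 6 against 1 of 21 in gene bodies. With the 10000 strongest entries it was 3 of 6 against 1 of 21, and with flanks of 50 kb 6 of 6 against 11 of 21. Shares over all genes were not computed for these alternatives.

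Acly makes cytosolic acetyl-CoA and feeds both branches of the pathway. It was the only member of this class with no replicated peak away from starts. Its peak at chr11:100527838-100528168 had 29.2 in A and 22.1 in B, percentiles 99.9 and 98.9. Fasn, the fatty acid synthase gene, had 10.2 in A and 10.6 in B at chr11:120824094-120824405, 142 bp downstream of a start. The promoter window of Fasn was covered only in A, by an entry of 8.79. A further replicated peak of Fasn lay 5.33 kb outside the gene, with 16.5 in A and 10.9 in B, in the flank past the end of transcription.

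Acaca encodes acetyl-CoA carboxylase, which commits carbon to fatty acids. It had a start entry in A alone, with 9.77, shared with the start of Tada2a. Further entries of A alone, in the body, had 15.4 and 6.37. Its replicated peak lay in the body, 15.6 kb from the nearest start, at chr11:84179349-84179846, with 19.1 in A and 18.2 in B. The start of the elongase gene Elovl6 had no entry in either list. Its body held replicated peaks 3.88 kb and 81.8 kb from the start. The first, at chr3:129536264-129536503, had 17.8 in A and 16.0 in B, and the second, at chr3:129614223-129614578, had 21.9 in A and 14.8 in B. A flank peak had 9.15 in A and 8.44 in B, and an entry of B alone in the body had 8.

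The stearoyl-CoA desaturase genes Scd1 and Scd2 belong to a cluster of such genes on chromosome 19. Scd2 had 17.7 in A and 13.9 in B at chr19:44293797-44294134, 121 bp inside its lower end. Scd1, the form known for its high expression in hepatocytes, had no peak in the gene body in either list. An entry of A alone, with 4.97, lay 107 bp outside the higher end. The nearest replicated peak lay 577 bp outside the higher end, with 12.2 in A and 7.09 in B, percentiles 66.9 and 16.4. Scd2 was thus higher than Scd1 in both replicates. Flank peaks lay at both genes. That at chr19:44284090-44284455, 9.22 kb below Scd2, had 22.9 in A and 16.7 in B, and one 7.66 kb above it had 14.9 in A and 9.29 in B. Entries of A alone at Scd2 had 12.7 and 6.74. The flank peak of Scd1, 5.63 kb below it, had percentiles of 93.6 in A and 63.1 in B.

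**Figure D3:**
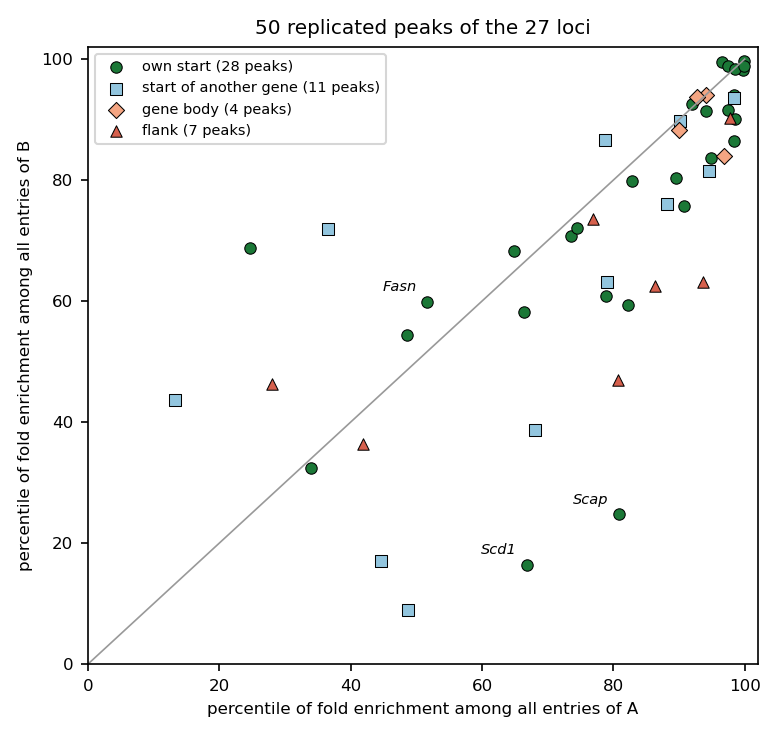
Percentile of fold enrichment among all entries of B (y axis) against the same among all entries of A (x axis) for the 50 replicated peaks, coloured by place; the line marks equal percentiles. Most start peaks crowd at the upper right, while Scap (80.8 in A, 24.8 in B) and Scd1 (66.9 in A, 16.4 in B) fall far below the line.

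Entries without a partner in the other replicate were mostly in A. Of 71 entries of A in the 27 loci, 21 (29.6%) had none, against 35.9% of all entries of A. Of 51 entries of B, 1 (1.96%) had none, an entry in the body of Elovl6, against 18.3% of all entries of B. The 21 entries of A alone had a median fold enrichment of 8.35 and a median percentile of 32.0, against 7.96 and 28.0 for all 13125 entries of A alone.

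The promoter sequences had features in common. Genes were chosen by name, not by sequence. SREBP sites usually lie beside those of NF-Y and Sp1, so the choice is not independent of these motifs. A CCAAT match stood in at least 1 window of 17 of the 21 genes (81.0%), against 42.3% of 17492 protein-coding genes with a window. Among genes whose window had a replicated peak it was 14 of 17, against 45.2% of 7098. At least 2 CCAAT matches in 1 window were found in 9 of 21 genes (42.9%), against 14.6%. Mvk had the most, 5, followed by Hmgcs1 and Nsdhl with 4 each. Hsd17b7, Fasn and 1 window of Insig2 had 3 each. No replicated peak overlapped the Fasn window or that window of Insig2. Of 37 CCAAT matches in the windows, 29 (78.4%) lay inside replicated peaks, while such peaks overlapped 72.4% of the windows. For GC boxes it was 45 of 46 (97.8%). These shares were not computed over all genes. The median position of the 37 CCAAT matches was -59 bases from the start. GC boxes stood in 17 of 21 genes (81.0%), against 49.2% of all genes. Among genes with a replicated peak over the window it was 17 of 17, against 73.9%. At least 2 GC boxes in 1 window were found in 12 of 21 genes (57.1%), against 29.2%. Counted by window, a CCAAT match stood in 18 of 29, against 38.2% of all windows. A GC box stood in 21 of 29, against 46.2%.

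The core of the sterol regulatory element stood in 1 of 21 genes, Hmgcs1, at position -137, against 1.41% of all genes. It lay inside the replicated peak. Functional elements are known to vary in sequence, and the windows are short, so nothing follows from the other 20 genes. The E-box stood in 5 of 21 (Scap, Insig1, Dhcr7, Sc5d and Hsd17b7), against 8.91%. A match is a description of letters, not a bound site. The Elovl6 window held none of the 4 motifs, and the window of Acaca in the table, at a start inside the gene, held none either.

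**Figure D4:**
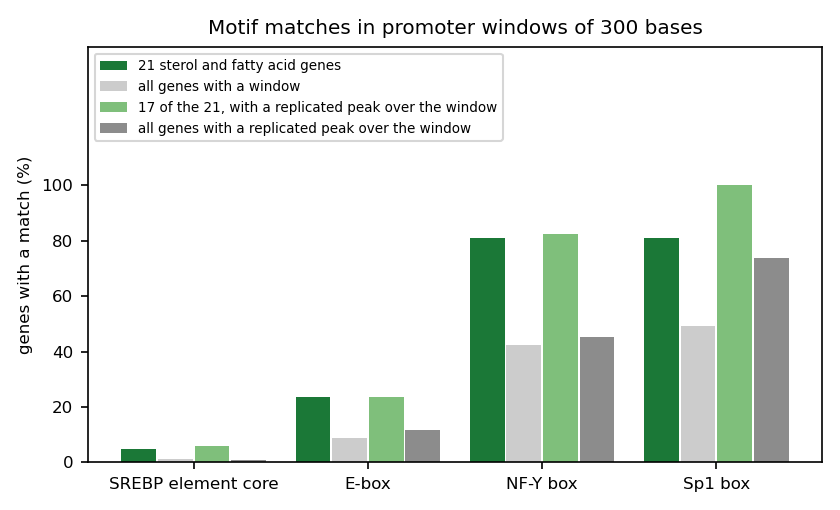
Share of genes (y axis, %) with a match to each motif in a promoter window of 300 bases, for the 21 genes of the pathway beside all genes with a window, and for the 17 of them with a replicated peak over the window beside all such genes. The NF-Y box (CCAAT) reaches 81.0% of the 21, against 42.3%, and 82.4% of the 17, against 45.2%; the Sp1 box (GC box) reaches 81.0%, against 49.2%, and 100%, against 73.9%.

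The promoters of the pathway also held more CpG dinucleotides, which are known to mark broadly active promoters, than those of all genes. The 29 windows of the 21 genes had a median of 18 CpG, against 13 over 21263 windows of all genes, and a GC content of 61.3%, against 56.3%. Among windows with a replicated peak they did not stand higher in CpG. There the median was 21 CpG, against 23 over all genes, and the GC content 62.7%, against 62.3%. A replicated peak overlapped 21 of the 29 windows (72.4%), against 37.4% of all windows. Weighting all windows to the CpG counts of the 29, a comparison added after the data were seen, gave 51.0%. Of the 8 windows without a peak, 3 had 5 CpG or fewer, where 3.45% of all windows had one. The Fasn window, with 39 CpG, was the richest of the 29 and had no replicated peak.

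Further genes of the pathway were also open at most starts. Of 37 such genes, 29 (78.4%) had a replicated start peak, against 51.4% at like length, and 16 (43.2%) had one away from the starts of all genes, against 34.1%. Among 15 further enzymes of synthesis, 13 had a replicated start peak, the exceptions being Me1 and Mcat. Me1 had a start entry in B alone, and Mcat had one at a gene end in A alone. Me1, which encodes the malic enzyme that supplies NADPH, had 4 replicated peaks, the strongest with 20.5 in A and 19.9 in B outside the gene. The acetyl-CoA carboxylase gene Acacb, the mitochondrial transacylase gene Mcat and the desaturase gene Fads2 also had 4 each.

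Of 12 genes of SREBP processing and sterol-dependent turnover and other lipogenic regulators, taken as one list, 7 were open at the start (58.3%), against 50% at like length. Mbtps1, the gene of the first protease that cuts SREBP, had its strongest peak at its start, with 23 in A and 16.9 in B. Mbtps2, the gene of the second protease, had no entry in either list. Rnf139 had 13.7 in A and 9.31 in B at its lower end. Nr1h2, which encodes a liver X receptor, and Erlin2 also had a replicated start peak, but the strongest peak of each locus lay at the start of another gene, with 23.1 in A and 23.5 in B near Nr1h2, and 18 in A and 15.1 in B near Erlin2. Among 10 genes of sterol handling 9 were open at the start (90.0%), against 52.0%, and 8 had a peak away from starts (80.0%), against 39.0%. Abca1, the cholesterol exporter gene, had the most, with 7 replicated peaks, 4 of them away from starts, and Abcg1 had 4. Tmem97 had 23.8 in A and 20.3 in B, and Acsl3 had 23.1 in A and 24.3 in B.

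**Figure D5:**
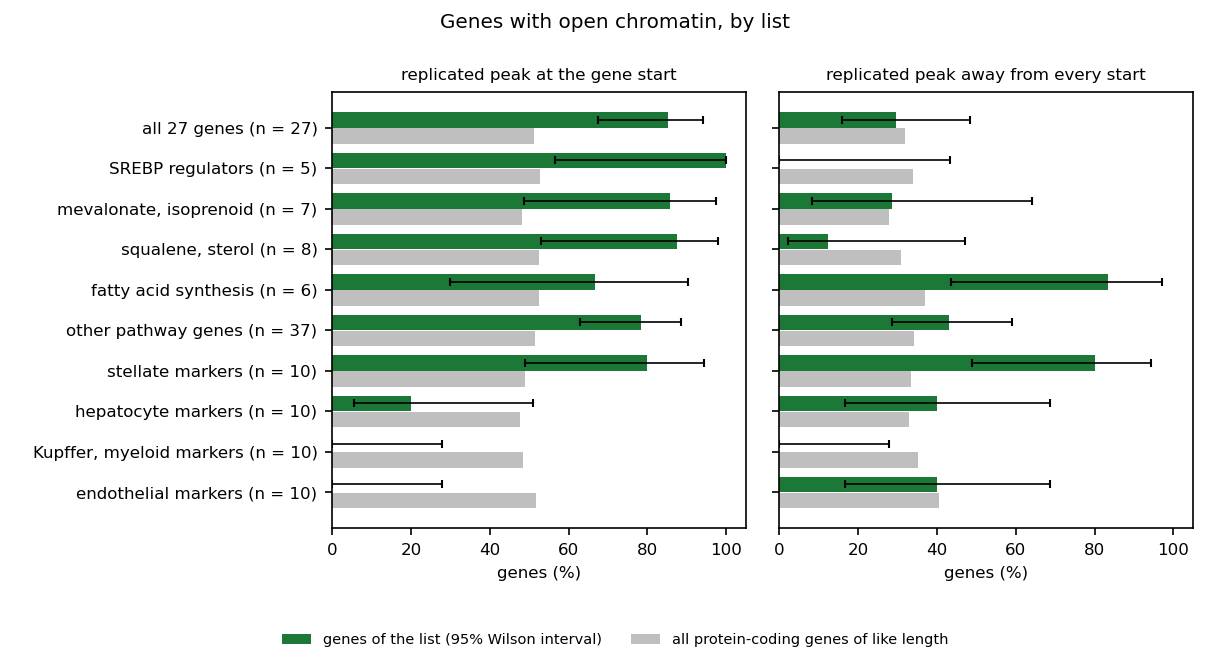
Share of genes (x axis, %) with a replicated peak at the start (left panel) or away from the starts of all protein-coding genes (right panel), by list; green bars are the genes of each list with 95% Wilson intervals over genes and grey bars all protein-coding genes of like length. At starts the 27 genes reach 85.2%, against 51.3%, and away from starts 29.6%, against 31.9%, where fatty acid synthesis genes (83.3%) and stellate markers (80.0%) stand higher.

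The labelled cell type was set beside marker lists of 10 genes each. These were chosen with earlier results of these data known, so they are not an independent check. Stellate markers had a replicated start peak at 8 of 10, against 49.0% of all genes at like length, and a median of 4 replicated peaks per locus, from 1 to 12. Hepatocyte markers had one at 2 of 10, Apoa2 and Ass1, against 47.7%, with a median of 0 per locus and a range of 0 to 4. Kupffer and myeloid markers had one at 0 of 10, against 48.3%, and sinusoidal endothelial markers at 0 of 10, against 51.7%. Replicated peaks lay in 4 of 10 endothelial loci (40.0%), against 74.2% of all genes at like length. There were 5 at Stab1, 2 at Pecam1 and 1 each at Kdr and Clec4g. All 4 loci held one away from starts (40.0%), against 40.5% at like length. Of the Kupffer and myeloid loci, Cd68 held 4 and Spi1 held 1, all at starts of other genes. By number of replicated peaks the leading markers were Reln, Ecm1, Colec11 and Nes for stellate cells, and Cyp2e1, Apoa2, Ass1 and Hnf4a for hepatocytes. Summed over the lists, A and B held 61 and 56 entries at stellate markers, 21 and 13 at hepatocyte markers, 8 and 6 at Kupffer and myeloid markers, and 21 and 14 at endothelial markers. The hepatocyte genes Alb, Ttr and Tat, and the Kupffer genes Adgre1, Clec4f and Timd4, had no entry in either list. Since hepatocytes also run this pathway, and some marker loci of hepatocytes and endothelial cells held peaks, the part of other cells in the peaks of the 27 genes was not tested.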

How the data were processed

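Peaks were deposited as 1 list per library in narrowPeak layout, in mm10. HOMER, MACS2, bedtools, Picard, SAMtools and STAR 2.7.0 appear in the submitters' processing notes without a stated role. The sources used here do not state a read shift for Tn5. The deposited columns hold a fold enrichment (a linear ratio), a −log10 p, a −log10 q, a score and a summit offset per entry. The smallest −log10 q was 3.04 (A) or 3.00 (B), so weaker regions are not listed.

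Gene spans, starts and promoter sequences came from RefSeq tables of GRCm38.p6, the assembly of mm10. All 27 symbols matched, 21 of them in the promoter table. Like length means all protein-coding genes weighted to the 10 length bins of a list. Wilson 95% intervals describe genes, not samples. Members and lists were chosen with earlier results of these data known. Every member was to be named, as were up to 4 genes per further list with the most replicated peaks and up to 2 with none. Marker genes are given mainly by counts. One gene that this rule names is not reported here. The printed promoters were those with a replicated peak, first with the sterol element core, then by mean percentile, and the longest gene without a start peak. Counting functions were checked on planted peaks. Python 3.11.15, numpy 2.4.6, pandas 2.3.3, statsmodels 0.14.6 and matplotlib 3.10.9 were used. Alternatives were stricter peaks, other overlaps, single replicates, and other flanks and start windows.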

Additional observations from a re-analysis of the deposited data

How the results depend on the processing

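Of 59 recomputed values, 41 stayed within 1.5 times the value reported (for the median, within 1 SD between A and B). The number of genes with a replicated peak in the locus, 27, ran from 20 to 27, within 1.5 times under all 11 alternatives. The lowest, 20 (74.1%), came with the 10000 strongest entries, against 47.4% at like length. The number with a start peak, 23, ran from 21 to 25, with the exception of the 10000 strongest entries of each list, which left 15 of 27 (55.6%), against 29.1% at like length. The median of 2 per locus was 1 with entries above the median −log10 q, with the 10000 strongest entries, with reciprocal overlap, in gene bodies alone, with 10 kb on either side, and without peaks at starts of other genes. It was 3 with 50 kb on either side, and 2 to 3 when a replicate was left out. The total of 50 replicated peaks was 27 with the 10000 strongest entries, 29 in gene bodies and 87 with 50 kb on either side. Alternatives for peaks away from starts were chosen after seeing the data, and shares over all genes were not computed for them. The 5 fatty acid synthesis genes with such a peak became 3 with the 10000 strongest entries and 2 in gene bodies, and stayed at 5 without either replicate. The 3 among the other 21 genes became 1 with the 10000 strongest entries, 1 in gene bodies and 11 with 50 kb on either side, where the fatty acid genes had 6. Without A the number was 3 and without B 8. The cause of these moves was not tested, beyond fewer entries or a changed flank. No paired analysis was possible because the samples form 1 group. The lists give no read counts, so for a missing peak, closed chromatin cannot be told apart from signal below the cutoff.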
